A study of Mus musculus with 18 samples.

Results

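Genes of the cell cycle and of DNA replication were described in neutrophils sorted from mouse lungs. The set held 36 genes, chosen by name and found by symbol among the 40481 gene IDs of the count table. Of these, 14 act in S phase and replication, 9 are cyclins, cyclin-dependent kinases (CDKs) and mitotic kinases, and 13 belong to the spindle, centromere, chromosome or anaphase machinery. The cells came from mice with a disrupted Cybb and from wild-type (WT) mice, both C57BL/6. Cybb encodes gp91phox, the core of the oxidase with which phagocytes make superoxide, and mutations in it cause X-linked chronic granulomatous disease (CGD). Zymosan, a yeast cell wall preparation, was given into the nose at 20 µg, and lungs were taken 24 hours later. Live CD45+ CD11b+ Ly6G+ cells were sorted by CD101, a surface glycoprotein used to tell immature (CD101neg) from mature (CD101pos) neutrophils. The 6 groups of 3 libraries were CGD zymosan CD101neg, WT zymosan CD101neg, CGD zymosan CD101pos, WT zymosan CD101pos, CGD naive CD101pos and WT naive CD101pos cells. Zymosan-treated mice were 13 weeks old and female and naive mice 12 weeks old and male, so the effect of zymosan cannot be told apart from sex and age. The labels do not say whether the replicates of a group were separate animals. The p-values therefore reflect only how much these libraries vary, which may be technical.

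Replication begins when the MCM2-7 complex, the core of the replicative helicase, is loaded onto origins by CDC6 and then joined by CDC45 and the GINS complex. PCNA clamps the polymerases to the template, and thymidylate synthase, thymidine kinase and ribonucleotide reductase supply the nucleotides. Cyclins with CDK1, Aurora and Polo-like kinases and the spindle proteins then carry the cell through mitosis. E2F factors with RB family proteins control many S phase genes, and the DREAM complex acts on mitotic genes through CHR elements and nearby CCAAT boxes. Neutrophil precursors divide in the bone marrow, and neutrophils that have left it are known as cells that no longer divide, so low levels of these genes are usual for them.

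The promoters of these genes are shown for the control sequences named above. RefSeq promoter windows of build GRCm38.p6, which run from 250 bases before to 50 bases after a gene's start, were matched for 30 of the 36 genes (31 windows). An E2F core (TTCCCGC or TTGGCGC or TTCGCGC, on either strand) stood in 35.5% of these windows, against 8.07% of all 32851 windows. It stood in 7 of 13 windows of S phase genes, in 2 of 7 of cyclins and mitotic kinases and in 2 of 11 of the spindle group. A CHR element (TTTGAA or TTCGAA, on either strand) stood in 51.6% of the members' windows, against 19.2% of all windows. It stood in 6 of 7 windows of cyclins and mitotic kinases and in 3 of 13 of S phase genes. A CCAAT box was present in 83.9% of the members' windows, against 37.4% of all windows. A match of letters describes the window and is not evidence of binding. Below are the 200 bases before the start of 4 replication genes on which the expression results turn, 5′ to 3′ on the strand of the gene, with E2F cores and CHR elements in capitals. They are Mcm5 (chr8:75109309-75109508, plus strand), Mcm6 (chr1:128359706-128359905, minus strand), Rrm1 (chr7:102441495-102441694, plus strand) and Mcm2 (chr6:88898781-88898980, minus strand).
Mcm5: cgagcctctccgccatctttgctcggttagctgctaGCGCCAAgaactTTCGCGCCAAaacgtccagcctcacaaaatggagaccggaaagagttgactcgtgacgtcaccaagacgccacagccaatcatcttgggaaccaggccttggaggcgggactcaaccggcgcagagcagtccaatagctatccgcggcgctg
Mcm6: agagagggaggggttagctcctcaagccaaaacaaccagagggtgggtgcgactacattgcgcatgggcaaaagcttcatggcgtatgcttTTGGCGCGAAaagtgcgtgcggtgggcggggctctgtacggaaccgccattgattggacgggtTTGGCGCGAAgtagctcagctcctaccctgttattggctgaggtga
Rrm1: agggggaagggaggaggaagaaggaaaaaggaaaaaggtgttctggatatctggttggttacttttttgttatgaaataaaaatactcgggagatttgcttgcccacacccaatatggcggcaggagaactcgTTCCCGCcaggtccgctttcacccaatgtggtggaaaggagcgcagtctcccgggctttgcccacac
Mcm2: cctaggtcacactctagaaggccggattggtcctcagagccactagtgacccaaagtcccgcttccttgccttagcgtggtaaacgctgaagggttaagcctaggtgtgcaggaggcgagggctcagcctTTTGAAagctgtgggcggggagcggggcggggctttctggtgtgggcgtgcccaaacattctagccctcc
Mcm5 has a lone core 164 bases before its start and a pair of overlapping cores on opposite strands at 152 and 149 bases. Mcm6 has such a pair at 109 and 106 bases and again at 46 and 43 bases. Its window also holds a core 25 bases after the start, outside the printed stretch. Rrm1 has 1 core at 67 bases, and Mcm2 has no core in its window and 1 CHR element at 70 bases. The window of Mcm3, which is not printed, holds its cores after the start, at 20, 40 and 43 bases.

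Libraries held 33.7 to 67.9 M reads in genes, and 16575 genes were tested. Levels are given as CPM, read counts scaled to library size with TMM factors. These factors were 0.702 to 0.809 for CGD CD101neg and 0.933 to 1.2 for WT CD101neg libraries. Cybb stood at 45.1 CPM in CGD CD101neg cells, against 263 CPM in WT CD101neg cells, at 32.6 against 173 CPM in CD101pos cells after zymosan, and at 54.7 against 257 CPM in naive cells, so every CGD group was below its WT counterpart as labelled. Cd101 was lower in CD101neg than in CD101pos cells of both genotypes (61.1 against 105 CPM in CGD, 166 against 403 CPM in WT). After zymosan Cd101 was also lower in CGD than in WT cells of the same sort (edgeR adjusted p = 0.000484 in CD101neg and 0.000101 in CD101pos cells). The CGD CD101pos mean thus lay below the WT CD101neg mean. Naive cells averaged 301 CPM in CGD and 375 CPM in WT, which overlapped. Neutrophil markers were abundant in every library, S100a8 between 7420 and 48900 CPM. Of the granule proteins of early granulocyte precursors, Elane reached at most 0.248 and Mpo at most 0.294 CPM, and Ctsg was at 0 in all 3 libraries of 4 groups, while Prtn3 ranged from 1.04 to 9.40 CPM. Other genes of the neutrophil precursor list were abundant, Ngp at 39.5 to 7730 CPM, Ltf at 12.2 to 1560 CPM and Chil3 at 28.8 to 2340 CPM. Camp ranged from 0.304 to 195 CPM and Cebpe from 4.3 to 18.9 CPM. Ms4a3, Fcnb and Gfi1 reached at most 2.14, 1.74 and 2.16 CPM.

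The cell cycle genes were low. Their median over the 36 genes was 0.912 CPM, against 3.02 CPM for all tested genes, and 20 of them lay over the 0.174 CPM of the low-count filter in all 18 libraries. Cenpf, which encodes a kinetochore protein, did not pass the filter (0 to 0.196 CPM), so 35 genes were tested. Per kb of exon, Tubb5, a beta-tubulin, led with 32.7 CPM per kb on average over the 18 libraries, followed by Pcna (8.42), Mcm4 (3.87) and Stmn1 (3.23), the gene of a microtubule-destabilising protein. Lowest per kb were Cenpf (0.0038), the spindle motor Kif11 (0.0119) and the kinetochore motor Cenpe (0.0152). Most cyclins and mitotic kinases were low as well. Ccna2, the S phase cyclin, reached at most 0.778 CPM and Cdk1 at most 1.17 CPM, while Aurka, a centrosome kinase, stood at 2.02 to 7.78 CPM. Of the 648 values of a gene in a library, 26 were 0. The proliferation marker Mki67 lay between 0.836 and 9.44 CPM, and spread most among the WT CD101neg libraries, at 3.17, 1.44 and 9.44 CPM. In such bulk samples fewer cells of a type and less RNA per cell cannot be told apart.

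**Figure D1:**
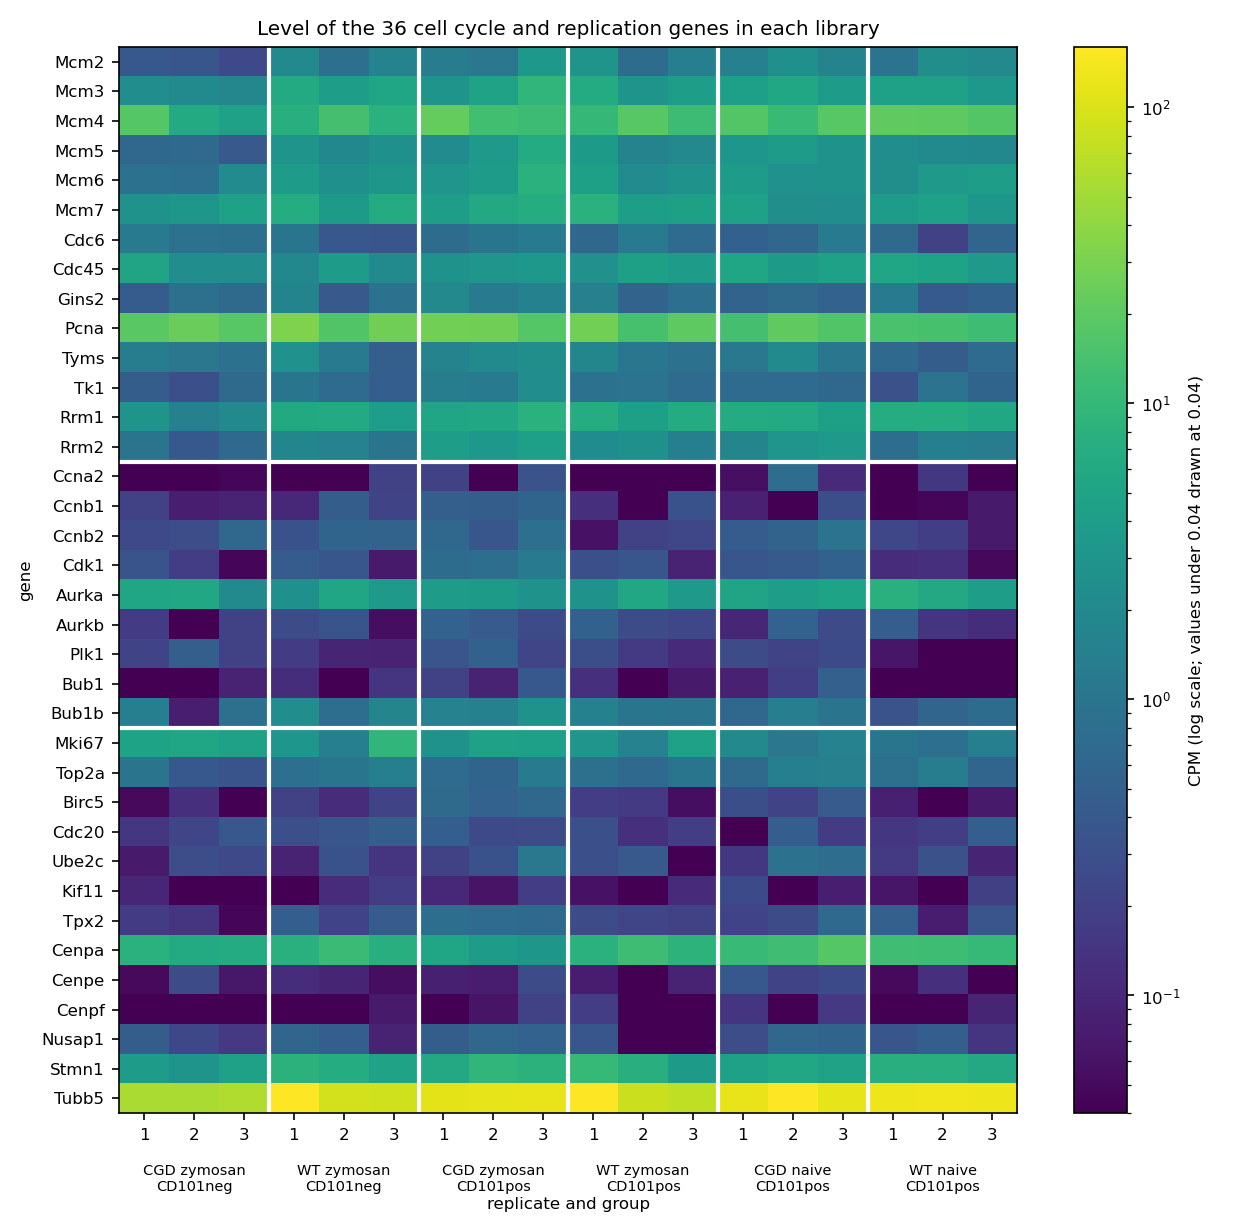
Levels of the 36 genes (rows, grouped by role) in the 18 libraries (columns, 3 per group) as CPM on a logarithmic colour scale. Tubb5, Pcna and Mcm4 are bright in all libraries, most cyclins and mitotic kinases are dark, and Mcm2 and Mcm5 are darkest in the CGD zymosan CD101neg columns.

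After zymosan, several replication genes were lower in CGD than in WT CD101neg cells. Of the 35 tested genes, 6 fell and none rose: the helicase subunits Mcm2, Mcm3, Mcm5 and Mcm6, the large ribonucleotide reductase subunit Rrm1, and Tubb5. That is 17.1% of the tested members, in a comparison that called 12.9% of all genes, 6.67% as higher and 6.24% as lower. The median log2 fold change was -0.68 over the 35 genes and -0.08 over all tested genes, and 28 of the 35 were negative. Of the 14 S phase genes 5 fell, of the 9 cyclins and mitotic kinases none passed by edgeR (0 at an unadjusted p under 0.05, 0 by DESeq2), and of the 12 tested spindle group genes 1 fell.

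Mcm5, a helicase subunit, had 0.639, 0.671 and 0.408 CPM in CGD CD101neg cells, against 2.94, 1.95 and 2.57 CPM in WT CD101neg cells. These rest on 26, 33 and 18 reads in the CGD libraries and 201, 102 and 141 reads in the WT libraries. The CGD libraries were all below the WT libraries (log2 fold change -2.11 ± 0.40, with the SE after the sign here and below, adjusted p = 0.00199, edgeR's quasi-likelihood test with Benjamini-Hochberg adjustment, as for all adjusted p-values here). Mcm2 had 0.393, 0.366 and 0.250 CPM in CGD, against 2.03, 0.842 and 1.64 CPM in WT cells. The WT values spread more than the CGD values but did not reach them (log2 fold change -2.16 ± 0.57, edgeR adjusted p = 0.0176).

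Mcm3 had 2.31, 2.03 and 1.88 CPM in CGD CD101neg cells, against 6.43, 4.17 and 5.24 CPM in WT cells (-1.35 ± 0.37, edgeR adjusted p = 0.0206). Mcm6 had 0.885, 0.834 and 2.16 CPM in CGD, against 3.80, 2.60 and 3.22 CPM in WT cells (-1.31 ± 0.42, edgeR adjusted p = 0.0444). In both genes the groups did not overlap, and the third CGD library of Mcm6 came nearest to the lowest WT library. Mcm4, another subunit, did not pass, with 17.7, 6.31 and 4.58 CPM in CGD, against 7.26, 13.7 and 7.95 CPM in WT cells (-0.02 ± 0.41, edgeR adjusted p = 0.983). Its first CGD library was the highest of the 6, so the groups overlapped. Mcm7, the last subunit, averaged 3.53 ± 0.978 CPM in CGD and 5.65 ± 1.75 CPM in WT cells (SD, n = 3 each), which did not pass.

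Among the nucleotide supply genes, Rrm1 had 2.97, 1.47 and 2.11 CPM in CGD CD101neg cells, against 6.24, 6.28 and 4.15 CPM in WT cells. All CGD libraries were below all WT libraries (-1.35 ± 0.29, edgeR adjusted p = 0.00458). Rrm2, the small subunit of the same enzyme, had 0.983, 0.387 and 0.681 CPM in CGD, against 1.78, 1.59 and 0.964 CPM in WT cells, and the groups overlapped by a narrow margin (-1.09 ± 0.39, edgeR adjusted p = 0.0699). Tk1, thymidine kinase, averaged 0.492 against 0.741 CPM and did not pass. Pcna, the sliding clamp, had 18.9, 23.7 and 18.4 CPM in CGD, against 31.9, 17 and 26.6 CPM in WT cells, which overlapped (-0.31 ± 0.26, edgeR adjusted p = 0.461).

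Tubb5 had 55.8, 55.8 and 58.9 CPM in CGD CD101neg cells, against 163, 89.8 and 87.0 CPM in WT cells. The CGD libraries were close to each other and all lower, while the first WT library stood far above the other WT libraries (-0.995 ± 0.263, edgeR adjusted p = 0.0184). Stmn1 had 3.81, 2.91 and 4.56 CPM in CGD, against 8.28, 6.70 and 4.79 CPM in WT cells and did not pass although the groups did not overlap (-0.81 ± 0.31, edgeR adjusted p = 0.0963). Tpx2, a spindle assembly factor, averaged 0.120 against 0.376 CPM without passing (edgeR adjusted p = 0.119), and Mki67 averaged 4.97 ± 0.427 CPM in CGD and 4.68 ± 4.21 CPM in WT cells (SD, n = 3 each).

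**Figure D2:**
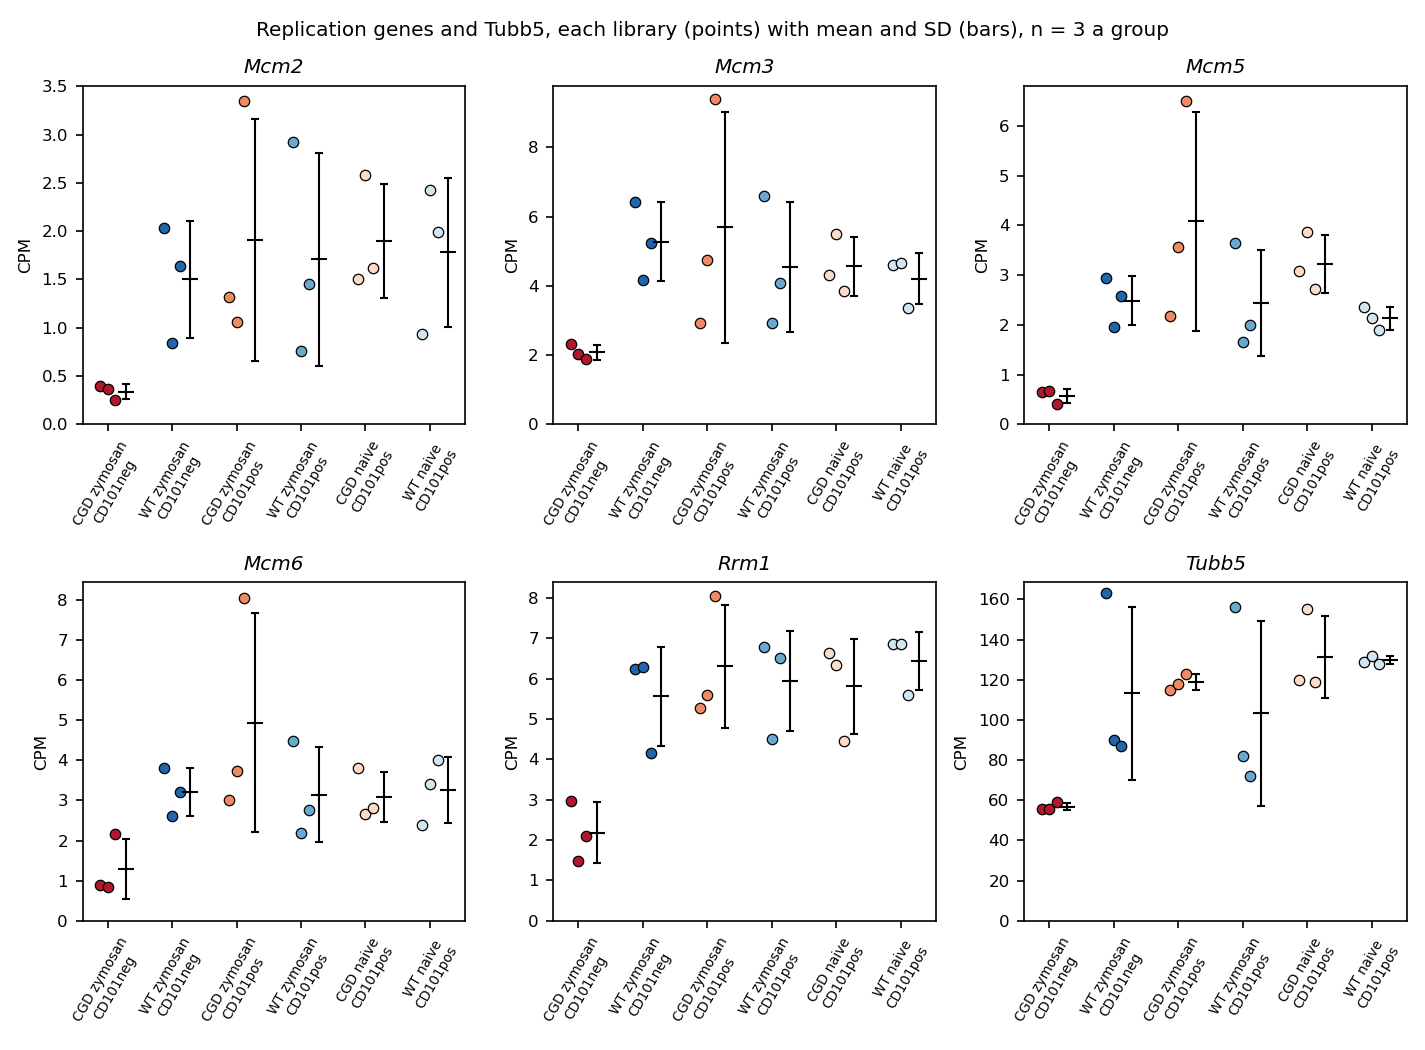
CPM of the 6 genes that fell in CGD against WT CD101neg cells, in each library of the 6 groups (points), with mean and SD (n = 3). The 3 CGD zymosan CD101neg libraries lie below all WT zymosan CD101neg libraries in every panel, and CGD zymosan CD101pos replicate 3 is the highest library of all 18 for Mcm2, Mcm3, Mcm5, Mcm6 and Rrm1.

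Single libraries carried several of these calls. Without CGD CD101neg replicate 2, or without WT CD101neg replicate 1, 2 of the 6 passed, Mcm5 and Rrm1, which stayed below the threshold whichever library was left out (highest edgeR adjusted p = 0.0138 and 0.0331). WT CD101neg replicate 1, the highest library of its group for Mcm2, Mcm3, Mcm5, Mcm6 and Tubb5, also had the smallest sum of 8 neutrophil markers, 18300 CPM, against 32900 and 78100 CPM in the other WT CD101neg libraries and 49500 to 109000 CPM in CGD CD101neg libraries.

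Markers of other cells fell in the same comparison, which called 12.9% of all genes. Of 14 monocyte and interstitial macrophage markers 10 fell in CGD CD101neg cells, of 14 alveolar macrophage markers 7 fell and 1 rose, and of 8 measured B cell markers 6 fell. The macrophage receptor Mrc1 had 2.80, 3.81 and 2.18 CPM in CGD, against 12.1, 9.87 and 6.55 CPM in WT cells (-1.70 ± 0.36, edgeR adjusted p = 0.00429). The B cell receptor component Cd79a had 3.73, 2.03 and 2.36 CPM in CGD, against 10.6, 10.1 and 13.5 CPM in WT cells (-2.08 ± 0.26, edgeR adjusted p = 6.57e-05). As sums, B cell markers came to 29.0 to 47.7 CPM in CGD and 123 to 149 CPM in WT cells, and monocyte and interstitial macrophage markers to 1350 to 1470 CPM in CGD and 1520 to 1800 CPM in WT cells. The alveolar macrophage sum ran the other way, 1660 to 2680 CPM in CGD and 515 to 818 CPM in WT cells. It includes Chil3 (1300 to 2340 CPM in CGD, 231 to 406 CPM in WT), which the neutrophil precursor list also holds. Of 11 tested neutrophil precursor markers 2 rose, and their sum was 2650 to 10700 CPM in CGD and 563 to 5360 CPM in WT cells. The B cell factor Pax5 and the dendritic cell marker Siglech were at 0 in all 3 CGD libraries. Fibroblast markers summed to 37.9 to 40.7 CPM in CGD and 71.1 to 83.5 CPM in WT cells, and dendritic cell markers to 6.6 to 7.06 and 12.1 to 16.3 CPM. The eosinophil, basophil and mast cell sum was 38.8 to 58.2 CPM in CGD and 65.8 to 81.8 CPM in WT cells. Sums of T and NK cell, erythroid, platelet, epithelial and endothelial markers overlapped between the groups. The part of all these cells in the lower replication genes was not tested.

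**Figure D3:**
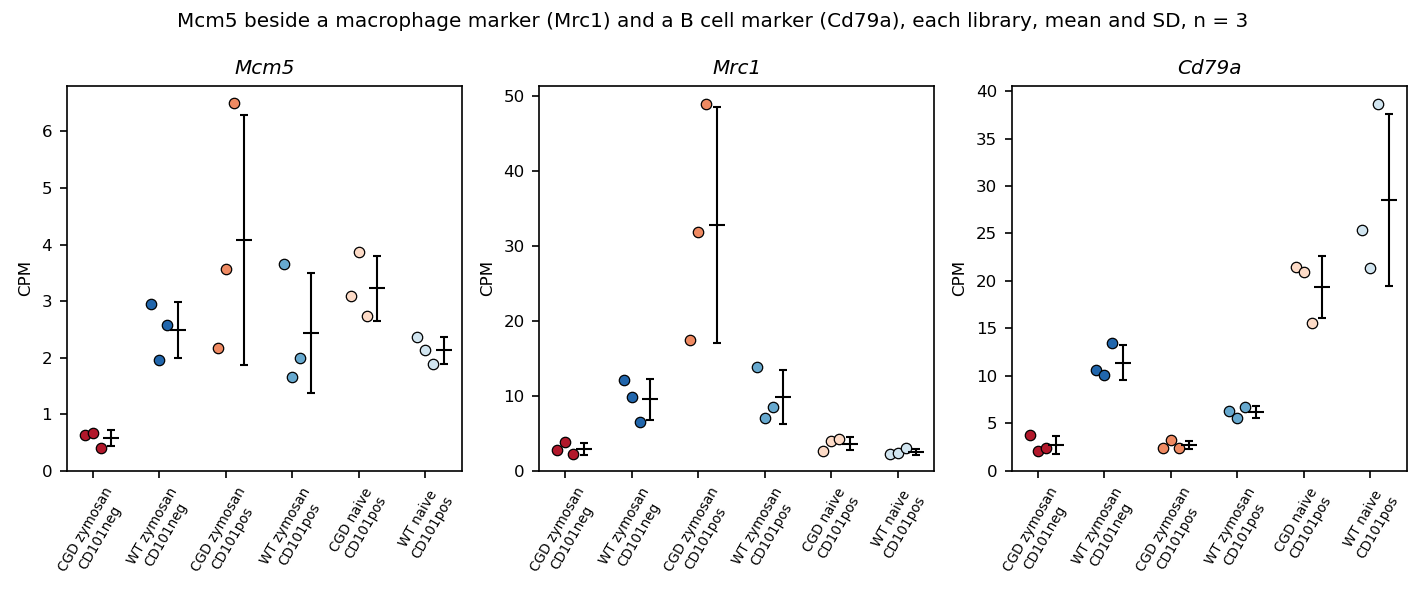
CPM of Mcm5, of the macrophage marker Mrc1 and of the B cell marker Cd79a in each library (points), with mean and SD (n = 3 a group). Both CGD zymosan groups are low for Cd79a, whereas Mcm5 and Mrc1 are low in CGD zymosan CD101neg and highest in CGD zymosan CD101pos replicate 3. Mrc1 is as low in the naive groups (2.61 to 4.22 CPM in CGD, 2.19 to 2.99 CPM in WT). Mcm5 is not (2.73 to 3.86 CPM in CGD naive, 1.89 to 2.36 CPM in WT naive). The markers were chosen for display after their values were seen.

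Within CGD mice after zymosan, more of the genes separated the CD101neg from the CD101pos sort. Of the 35 tested genes, 11 fell in CD101neg cells and none rose: Mcm2, Mcm3, Mcm5, Mcm6, Tk1, Rrm1, Rrm2, Birc5, Tpx2, Stmn1 and Tubb5. That is 31.4% of the tested members, in a comparison that called 7.35% of all genes, 3.27% as higher and 4.08% as lower. The median log2 fold change was -1.21 over the members and -0.02 over all tested genes, and 30 of the 35 were negative. Of the 14 S phase genes 7 fell, and of the 12 tested spindle group genes 4 fell.

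Mcm5 had 0.639, 0.671 and 0.408 CPM in CGD CD101neg cells, against 2.17, 3.57 and 6.5 CPM in CGD CD101pos cells (-2.83 ± 0.40, edgeR adjusted p = 0.000786). Rrm2 had 0.983, 0.387 and 0.681 CPM in CD101neg, against 4.16, 3.38 and 4.33 CPM in CD101pos cells (-2.54 ± 0.39, edgeR adjusted p = 0.00127). Rrm1 had 2.97, 1.47 and 2.11 CPM in CD101neg, against 5.26, 5.60 and 8.05 CPM in CD101pos cells (-1.53 ± 0.29, edgeR adjusted p = 0.00457). None of these groups overlapped, and the 3 genes passed with each library left out in turn. Rrm2 varied little among the CD101pos libraries, whereas Mcm5 in the third CD101pos library was far above the first.

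The other helicase subunits that passed were Mcm2, with 0.393, 0.366 and 0.250 CPM in CD101neg against 1.32, 1.06 and 3.35 CPM in CD101pos cells (-2.51 ± 0.57, edgeR adjusted p = 0.0140), Mcm3 (-1.46 ± 0.37) and Mcm6 (-1.94 ± 0.42). Tk1 had 0.467, 0.305 and 0.703 CPM in CD101neg, against 1.34, 1.21 and 2.33 CPM in CD101pos cells (-1.73 ± 0.45, edgeR adjusted p = 0.0261). The third CD101pos library was again the highest for each of these genes, and no groups overlapped. Mcm4 and Pcna did not pass, at 9.53 ± 7.12 against 15.7 ± 5.72 CPM and 20.3 ± 2.91 against 23.9 ± 4.93 CPM (SD, n = 3 each).

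Among mitotic genes, Birc5, which encodes survivin, had 0.0491, 0.122 and 0 CPM in CD101neg cells, against 0.703, 0.538 and 0.657 CPM in CD101pos cells (-3.39 ± 0.82, edgeR adjusted p = 0.0195). The CD101neg values are 2, 6 and 0 reads, and 3 reads in the third library would be 0.0681 CPM, so the size of this difference is poorly fixed. Tpx2 had 0.172, 0.142 and 0.0454 CPM in CD101neg, against 0.807, 0.723 and 0.684 CPM in CD101pos cells (-2.60 ± 0.68, edgeR adjusted p = 0.0284). The groups were apart in both genes. Stmn1 averaged 3.76 ± 0.826 CPM in CD101neg and 7.84 ± 1.81 CPM in CD101pos cells, and Tubb5 56.8 ± 1.81 and 119 ± 4.15 CPM (SD, n = 3 each), log2 fold changes of -1.06 in both (edgeR adjusted p = 0.0468 and 0.0220).

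Cdk1, the mitotic kinase, averaged 0.191 CPM in CD101neg and 0.906 CPM in CD101pos cells and did not pass (-2.25 ± 0.70, edgeR adjusted p = 0.0562). None of the 9 cyclins and mitotic kinases passed by edgeR as fitted here, although 4 had an unadjusted p under 0.05 and DESeq2 called 1, Cdk1. Cdk1 also passed by edgeR with library size only, with no low-count filter and with a block by number, and both Cdk1 and Bub1b passed with a block by genotype and number in the zymosan libraries. Cenpa, the centromeric histone H3 variant, went the other way, at 7.96, 6.31 and 6.67 CPM in CD101neg against 5.23, 3.97 and 3.21 CPM in CD101pos cells, without passing (0.76 ± 0.25, edgeR adjusted p = 0.0705). DESeq2 called it higher, as did edgeR with a block by genotype and number in the zymosan libraries (adjusted p = 0.00521).

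**Figure D4:**
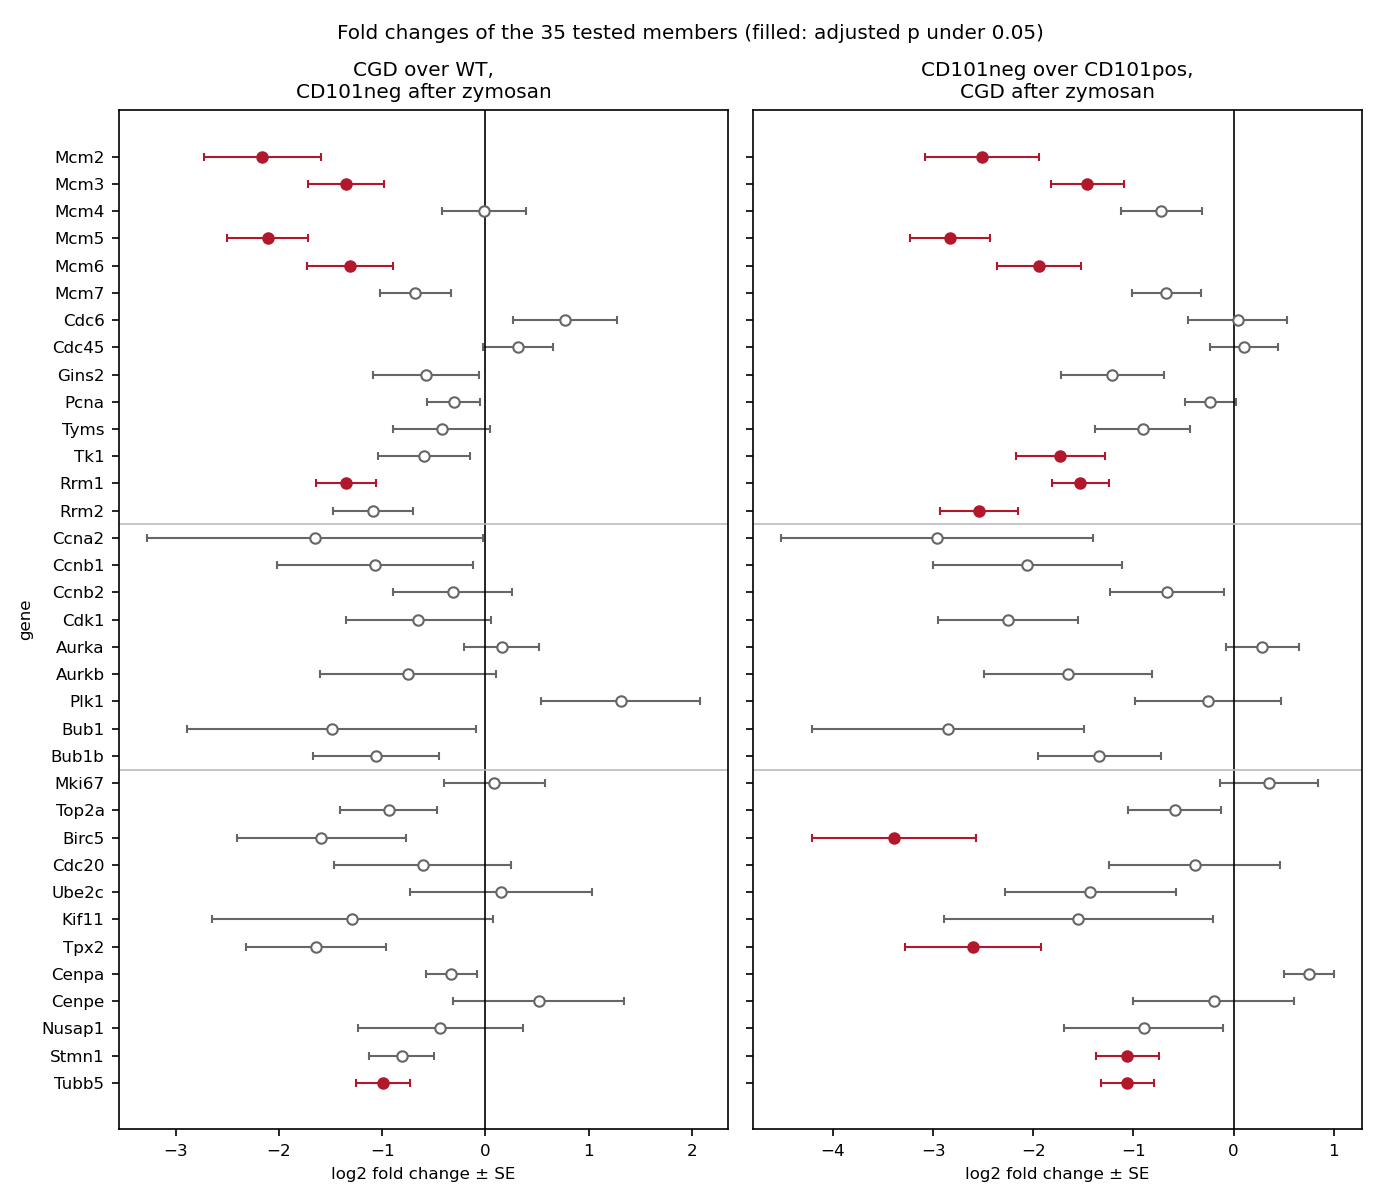
Log2 fold changes with SE of the 35 tested genes, grouped by role, for CGD over WT in CD101neg cells (left) and CD101neg over CD101pos in CGD cells (right), both after zymosan. Filled points passed (6 on the left, 11 on the right), all at negative values, and the comparisons share the CGD CD101neg libraries.

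Both comparisons use the same 3 CGD CD101neg libraries, so they are not independent. In the subset comparison the count fell to 3 without CGD CD101pos replicate 3 (Mcm5, Rrm1 and Rrm2), to 4 without CGD CD101neg replicate 2 and to 5 without CGD CD101neg replicate 3. CGD CD101pos replicate 3 also had the smallest neutrophil marker sum of its group, 32500 CPM against 70400 and 43700 CPM. S100a8, S100a9, Retnlg, Ly6g, Cxcr2 and Csf3r were lowest there, Csf3r by little (2740 against 2980 and 2850 CPM). Mmp9 (1980 against 1890 and 1650 CPM) and Cd101 (112 against 95.9 and 106 CPM) were highest there. The same library had the highest Mrc1 of its group, 49.0 CPM against 17.5 and 31.8 CPM. Of the alveolar macrophage markers 10 of 14, and of the monocyte and interstitial macrophage markers 8 of 14, fell in CD101neg against CD101pos CGD cells. Mrc1 was at 2.93 against 32.8 CPM (-3.48 ± 0.38, edgeR adjusted p = 0.000128). Of the 8 B cell markers none passed by edgeR and 2 had an unadjusted p under 0.05, with Cd79a at 2.71 against 2.69 CPM. Sums of epithelial (375 to 705 against 1200 to 1440 CPM) and dendritic cell markers (6.6 to 7.06 against 15.9 to 21.4 CPM) were lower in CD101neg cells. So was that of platelet markers (16.2 to 33.7 against 39.9 to 48.1 CPM), while the sums of the other non-neutrophil lists overlapped. The part of macrophages and of these other cells in the replication genes was not tested.

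In WT mice none of the 35 genes passed in CD101neg against CD101pos cells by edgeR's quasi-likelihood test, in a comparison that called 0.44% of all genes (0.41% as higher and 0.0302% as lower). At an unadjusted p under 0.05 there was 1, and DESeq2 called 0. The median log2 fold change was 0.13, against 0.02 for all genes. Mcm5 had 2.94, 1.95 and 2.57 CPM in WT CD101neg, against 3.65, 1.66 and 1.99 CPM in WT CD101pos cells, and Rrm1 averaged 5.55 against 5.94 CPM, with overlap in both. Replicate numbers pair the WT sorts. A fit of the zymosan libraries alone with genotype and number as a block called 1741 genes, against 60 in those libraries without the block and 73 in all libraries, and a block by number over all libraries called 50. Each of these called 0 of the members.

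The difference between the genotypes in this sort effect was tested directly, as the CD101neg against CD101pos log2 difference of CGD minus that of WT. Mcm5 passed, at -2.86 ± 0.54 (edgeR adjusted p = 0.0170), the only one of the 35 genes in the fit of all libraries, in a test that called 0.851% of all genes (0.181% as higher and 0.67% as lower). The members' median was -1.30, against -0.01 for all genes, and 30 of 35 were negative. Rrm2 (-2.01 ± 0.53, edgeR adjusted p = 0.0819) and Rrm1 (-1.44 ± 0.40, edgeR adjusted p = 0.0970) came next to the threshold without passing. DESeq2 called 7 members, among 584 genes called in all. With a block by genotype and number in the zymosan libraries, edgeR called 12 members, among 2229 genes called of 15791 tested. Rrm1 and Rrm2 were called in both. The Mcm5 call was lost without CGD CD101neg replicate 3, CGD CD101pos replicate 3 or WT CD101pos replicate 3 (highest edgeR adjusted p = 0.0596) and with only the 4 zymosan groups in the fit (0.0521). Of the same macrophage lists, 4 of 14 alveolar and 7 of 14 monocyte and interstitial macrophage markers had a lower interaction, and their part was not tested.

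In CD101pos cells after zymosan the one gene that differed between genotypes was Cenpa. It had 5.23, 3.97 and 3.21 CPM in CGD, against 7.95, 12.1 and 8.57 CPM in WT cells, without overlap (-1.21 ± 0.25, edgeR adjusted p = 0.00828). This was 1 of 35 members (2.86%), in a comparison that called 5.3% of all genes, 2.77% as higher and 2.53% as lower. The call was narrowly lost without CGD CD101pos replicate 2 (edgeR adjusted p = 0.0505). The other members leaned the opposite way: 32 of 35 log2 fold changes were positive, with a median of 0.69 against 0.02 for all genes, and none of these passed. Birc5 had 0.703, 0.538 and 0.657 CPM in CGD, against 0.182, 0.164 and 0.0542 CPM in WT cells, non-overlapping but short of the threshold (2.22 ± 0.74, edgeR adjusted p = 0.0941). DESeq2 called Birc5 and the mitotic cyclin Ccnb2 here as well, 3 members in all. In the same comparison 6 of 14 alveolar macrophage markers and 4 of 14 monocyte and interstitial macrophage markers rose, 1 of the 14 fell, and 5 of 8 B cell markers fell. Their part was not tested.

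Cenpa was also the one member that fell after zymosan in CGD CD101pos cells. It had 5.23, 3.97 and 3.21 CPM in zymosan cells, against 10.9, 12.6 and 17.7 CPM in naive cells, far apart (-1.73 ± 0.25, edgeR adjusted p = 0.000151). The comparison called 12.8% of all genes, 7.13% as higher and 5.71% as lower, against 2.86% of the members. In WT CD101pos cells Cenpa had 7.95, 12.1 and 8.57 CPM after zymosan, against 12.6, 12.2 and 10.4 CPM in naive cells, which overlapped (-0.30 ± 0.25, edgeR adjusted p = 0.590). The zymosan effect of CGD minus that of WT was -1.43 ± 0.35 and did not pass (edgeR adjusted p = 0.0975). In WT cells none of the 35 members passed for zymosan against naive by edgeR, where 3.79% of all genes did (2.92% higher and 0.875% lower), 5 had an unadjusted p under 0.05, and DESeq2 called 2 (Plk1 and Mki67). For the interaction of genotype with zymosan none passed by edgeR, against 0.32% of all genes (0.163% higher and 0.157% lower), 1 had an unadjusted p under 0.05, and DESeq2 called 1, Cenpa.

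Between naive CGD and WT cells none of the 35 genes passed by edgeR's quasi-likelihood test, in a comparison that called 0.127% of all genes (0.121% as higher and 0.00603% as lower), 8 had an unadjusted p under 0.05, and DESeq2 called 0. The median log2 fold change was 0.38, against 0.00 for all genes. Rrm2 had 1.77, 3.05 and 3.46 CPM in CGD naive, against 0.797, 1.42 and 1.34 CPM in WT naive cells, apart but not past the threshold (1.22 ± 0.37, edgeR adjusted p = 0.392). Mcm5 was at 3.23 ± 0.579 CPM in CGD and 2.13 ± 0.235 CPM in WT naive cells (SD, n = 3 each). Ordered by mean, Mcm5 was highest in CGD zymosan CD101pos cells (4.08 CPM), then CGD naive (3.23), WT zymosan CD101neg (2.48), WT zymosan CD101pos (2.43), WT naive (2.13) and CGD zymosan CD101neg cells (0.573). Each of these groups overlapped the next one in this order except for WT naive cells, at 1.89 to 2.36 CPM, and CGD zymosan CD101neg cells, at 0.408 to 0.671 CPM, which differ in genotype, sort and treatment and were not tested against each other.

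Regulators of the cycle outside the set were compared as well, and a CDK inhibitor and a G1 kinase were higher in CGD cells. Cdkn1a, which encodes the CDK inhibitor p21, had 499, 571 and 626 CPM in CGD CD101neg cells, against 246, 224 and 230 CPM in WT CD101neg cells (1.28 ± 0.16, edgeR adjusted p = 7.87e-05). In CD101pos cells after zymosan it had 518, 472 and 491 CPM in CGD, against 260, 252 and 267 CPM in WT (0.93 ± 0.16, edgeR adjusted p = 0.00287). The groups were well apart in both sorts, and naive cells stood at 247 to 336 CPM. It was 1 of 7 tested CDK inhibitors to pass in either comparison, and these called 12.9% and 5.3% of all genes. Cdkn1b, which encodes p27, averaged 114 CPM in CGD zymosan CD101pos cells and 320 CPM in CGD naive cells (-1.49 ± 0.25, edgeR adjusted p = 0.000624).

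The comparison of CGD with WT cells called 12.9% of all genes in CD101neg cells and 5.3% in CD101pos cells after zymosan. Of 26 tested cyclins, CDKs, E2F and RB family genes of the G1 to S transition, 1 rose and none fell in CGD against WT CD101neg cells. It was Cdk6, a G1 kinase, with 106, 172 and 138 CPM in CGD, against 71.7, 22.6 and 40.2 CPM in WT cells, the WT libraries scattered but all lower (1.63 ± 0.38, edgeR adjusted p = 0.00922). With library size alone as scaling it did not pass (1.09, edgeR adjusted p = 0.0820). In CD101pos cells after zymosan 2 of the 26 rose, Cdk6 (1.45 ± 0.38, edgeR adjusted p = 0.0313, lost with 4 of the 6 libraries left out in turn, with library size only and with no low-count filter, edgeR adjusted p = 0.113 and 0.115) and the transcription factor Myc (1.49 ± 0.29, edgeR adjusted p = 0.00533), and 1 fell. That was E2f2, an activating E2F, with 16.3, 13.6 and 14.0 CPM in CGD, against 34.8, 46.4 and 39.9 CPM in WT cells (-1.46 ± 0.28, edgeR adjusted p = 0.00480). The CGD values were tight and far below every WT value.

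**Figure D5:**
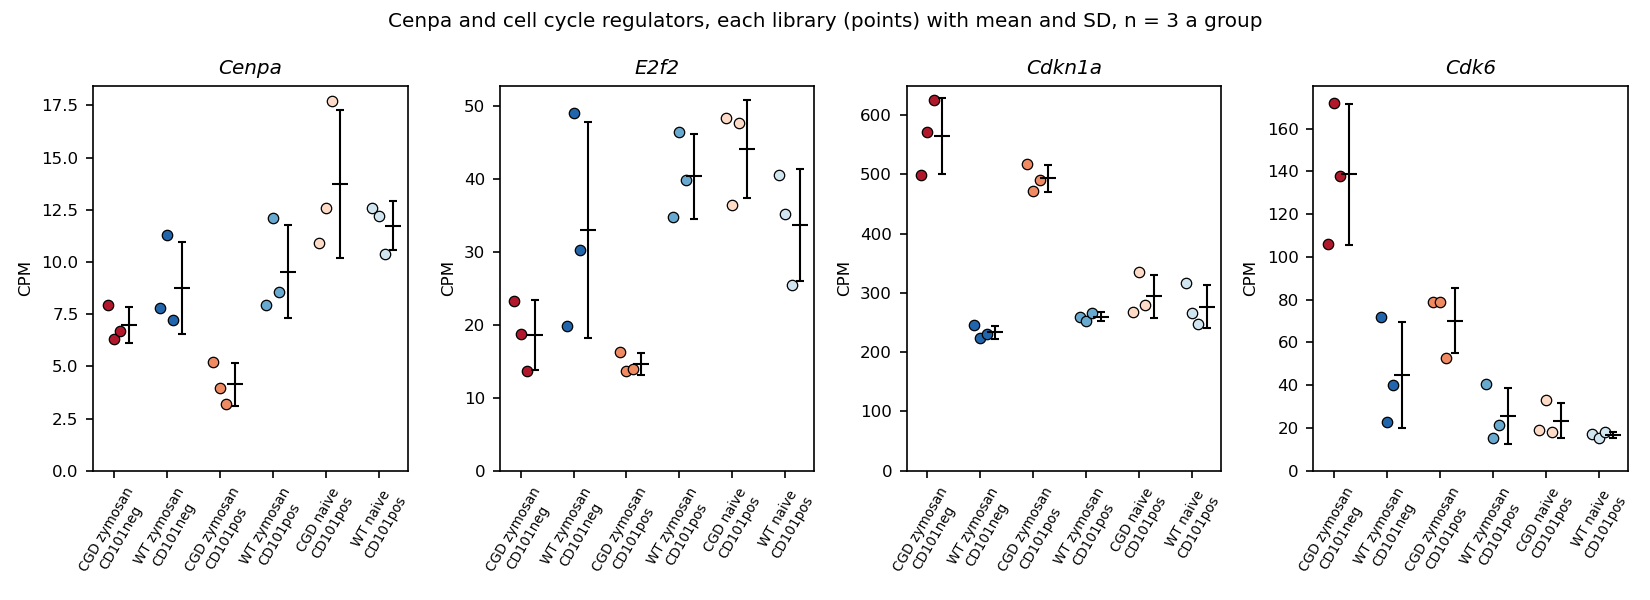
CPM of Cenpa, E2f2, Cdkn1a and Cdk6 in each library (points), with mean and SD (n = 3 a group). CGD zymosan CD101pos libraries are the lowest for Cenpa (3.21 to 5.23 CPM), and both CGD zymosan groups lie above every other library for Cdkn1a (472 CPM and more, against at most 336 CPM).

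Of all genes, 12.9% were called in CGD against WT CD101neg cells (6.67% as higher and 6.24% as lower). In CD101pos cells after zymosan 5.3% were called, and in the CGD sorts 7.35%. Of 39 other tested replication and licensing genes, 4 fell and none rose in CGD against WT CD101neg cells, among them the maintenance methyltransferase Dnmt1 (4.41 against 14.8 CPM, -1.75 ± 0.42, edgeR adjusted p = 0.0109), the single-strand binding protein Rpa1 (-0.99 ± 0.28) and the RNase H2 subunit Rnaseh2b (-1.26 ± 0.41). Rnaseh2b overlapped between the groups. Dnmt1 had its highest mean in WT CD101neg cells. Outside this comparison it averaged 4.15 CPM in CGD CD101pos, 3.92 CPM in WT CD101pos, 4.94 CPM in CGD naive and 2.62 CPM in WT naive cells. In CGD CD101neg against CD101pos cells 4 also fell, Rfc3, Rnaseh2b, Rpa1 and Tipin. Of 58 other mitosis genes, 4 fell and 1 rose in CGD against WT CD101neg cells. The gene that rose was Ckap2l, at 13.8 against 4.71 CPM (1.54 ± 0.30, edgeR adjusted p = 0.00255). Kif23, a cytokinesis motor, had 14.3, 12.7 and 9.64 CPM in CGD, against 20.9, 50.6 and 27.6 CPM in WT CD101neg cells (-1.44 ± 0.26, edgeR adjusted p = 0.00144), and its partner Racgap1 averaged 0.433 against 1.52 CPM (-1.81 ± 0.39, edgeR adjusted p = 0.00497). In CD101pos cells after zymosan Kif23 was lower too (19.0 against 62.6 CPM, edgeR adjusted p = 0.00103), as was the securin Pttg1 (67.3 against 139 CPM, edgeR adjusted p = 0.0112), 2 of 58. Between the CGD sorts, mitosis genes lower in CD101neg cells included Anln, Racgap1 and Cdca8 (edgeR adjusted p = 0.0135, 0.0188 and 0.0265). Fzr1 was higher in CD101neg cells (18.8 against 8.23 CPM, edgeR adjusted p = 0.0229), although the groups overlapped. Of 20 checkpoint and repair genes, 2 fell and none rose in CGD against WT CD101neg cells, among them the kinase Chek2 (-1.75 ± 0.57, edgeR adjusted p = 0.0485). In the CGD sorts 1 of the 20 fell and 1 rose, Trp53, the gene of p53 (0.96 ± 0.27, edgeR adjusted p = 0.0399).

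After zymosan against naive in CGD CD101pos cells, 2 of the 26 tested G1 to S genes rose and 4 fell. That comparison called 12.8% of all genes, 7.13% as higher and 5.71% as lower. Cdk6 rose (70.1 against 23.5 CPM, 1.58 ± 0.38, edgeR adjusted p = 0.00994), while E2f2 (14.6 against 44.1 CPM) and the pocket proteins Rbl2 (7.66 against 14.4 CPM) and Rb1 (5.05 against 8.74 CPM) fell. In WT cells, where 3.79% of all genes were called, none of the 26 passed by edgeR and 4 had an unadjusted p under 0.05. Of the 58 other mitosis genes 2 rose and 2 fell after zymosan in CGD cells. Kif23 fell, at 19.0 against 81.0 CPM (-2.09 ± 0.26, edgeR adjusted p = 3.76e-05), as did Pttg1, at 67.3 against 151 CPM (-1.17 ± 0.23, edgeR adjusted p = 0.00222). The spindle gene Ckap2l rose, at 9.5 against 2.96 CPM (1.68 ± 0.30, edgeR adjusted p = 0.00109), as did the cytokinesis gene Anln, at 1.05 against 0.474 CPM (1.15 ± 0.37, edgeR adjusted p = 0.0467). In WT CD101pos cells the phosphatase gene Cdc25b was higher after zymosan than in naive cells, at 44.7 against 9.86 CPM (2.18 ± 0.49, edgeR adjusted p = 0.0174). Between the WT sorts the cyclin Ccnf was the one of the 58 other mitosis genes to pass, at 7.81 CPM in CD101neg and 1.05 CPM in CD101pos cells (edgeR adjusted p = 0.0481). That comparison called 0.44% of all genes.

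The remaining genes of the set passed in none of the comparisons by edgeR fitted to all libraries with TMM factors, as did Mcm4, Mcm7, Pcna, Mki67, Cdk1, Ccna2 and Aurka. Other settings called some of these, among them Cdk1, Mcm4, Mcm7, Gins2 and Bub1b in the CGD sorts, and Ccnb2, Plk1 and Mki67 by DESeq2 in CD101pos cells. Among replication genes, the helicase cofactor Cdc45 ranged over the 18 libraries from 1.91 to 5.44 CPM, the loading factor Cdc6 from 0.201 to 1.28 CPM, the GINS subunit Gins2 from 0.402 to 1.97 CPM and thymidylate synthase Tyms from 0.465 to 2.69 CPM. The mitotic cyclins Ccnb1 and Ccnb2 reached at most 0.587 and 0.946 CPM, and the kinases Aurkb and Plk1 at most 0.545 and 0.523 CPM. Of the spindle checkpoint genes, Bub1 was at 0 in 6 libraries and at most at 0.513 CPM, while Bub1b ranged from 0.0814 to 2.84 CPM. Topoisomerase Top2a ranged from 0.340 to 1.46 CPM. The anaphase genes Cdc20 and Ube2c, the mitotic motors Kif11 and Cenpe and the spindle gene Nusap1 reached at most 0.491, 1.12, 0.254, 0.396 and 0.623 CPM.

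Some values carry a limit from the genome. Exons overlap a gene on the opposite strand over 67.3% of Gins2 (with Gse1), 22.8% of Ube2c (with Tnnc2) and 12.5% of Ccna2 (with Exosc9), and since the sources used here do not state whether counting used strand, reads of the partners cannot be told apart. Pcna, Ccnb1 and Ccnb2 have processed copies in the same table, so the source of part of their reads is uncertain.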

How the data were processed

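The deposited values were raw read counts for each gene in 18 RNA-seq libraries. The authors used featureCounts 1.4.6-p5, Subread and STAR 2.5.1a, per the submitters' processing notes. Per the labels' protocols, total RNA libraries were made with a SMARTer kit. Genome build, annotation release and whether counting used strand: not given in the sources used here. Of 40757 lines, 276 repeated the ID of an earlier line and were removed.

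Counts were tested with edgeR 4.0.16 (R 4.3.3), quasi-likelihood, robust, with TMM factors, in 1 fit of all 18 libraries (12 residual degrees of freedom). filterByExpr by group kept 16575 genes. The 7 pairwise comparisons and 2 interactions were each adjusted by Benjamini-Hochberg over these genes, with a threshold of 0.05. The SE is the size of the log2 fold change divided by the square root of F. The fit was also run on simulated libraries with known changes in the CGD CD101neg group. These held no pairing of sorts and no difference between groups outside the changed genes. The run therefore does not bear on either. The members, pathway lists and marker lists were chosen with earlier results of these data known.

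All 36 members were looked at. Named in full were the members past the threshold in any comparison, up to 12 with the lowest p, and the 4 with the highest mean CPM. From each pathway list up to 4 called genes with the lowest p were eligible. Some genes of these lists are counted but not reported by name here. Exon lengths and overlaps came from GENCODE for GRCm38, and promoters from RefSeq (GRCm38.p6), where 27 of 31 windows ended within a transcript of their gene on the stated strand and 0 on the reverse strand. Counts of 3 set the floor for a gene at 0, which covers counting error only.

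Same-numbered WT CD101neg and CD101pos libraries deviated together (correlations across genes of 0.312 to 0.487), so the numbers, which come from the labels, pair them. CGD libraries did not all do so (0.0245 to 0.26). Alternatives were RLE factors, library size only, replicate blocks, DESeq2 1.42.0, testing every gene with a read, fits of only the groups compared or only the zymosan libraries, and each library left out in turn.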

Additional observations from a re-analysis of the deposited data

Results flagged for a closer look

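The effect of CD101 sort on Mcm5 differed between genotypes by the interaction test. The difference between the CGD and the WT log2 fold change was -2.86 (edgeR adjusted p = 0.0170). Mcm5 averaged 0.573 CPM in CD101neg against 4.08 CPM in CD101pos CGD cells, and 2.48 against 2.43 CPM in WT cells. This call was lost without CGD CD101neg replicate 3, CGD CD101pos replicate 3 or WT CD101pos replicate 3. It was also lost with only the zymosan groups in the fit.

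The effect of zymosan on E2f2 differed between genotypes in CD101pos cells, by -1.85 (edgeR adjusted p = 0.0485). E2f2 averaged 14.6 CPM after zymosan and 44.1 CPM in naive CGD cells, and 40.4 against 33.7 CPM in WT cells. This call was lost with 11 of 12 libraries left out in turn (highest edgeR adjusted p = 0.165) and with the replicate number as a block (0.0546). Zymosan and naive mice also differed in sex and age.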

How the results depend on the processing

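No called result reversed. With library size only, the median of all genes moved to -0.57 in CGD against WT CD101neg cells, to -0.34 in the CGD sorts and to -0.45 for genotype by sort. Relative to it the members' medians of -1.18, -1.50 and -1.68 stayed lower. Calls there split into 413 higher and 3572 lower genes, against 1105 and 1034 with TMM, in CGD against WT CD101neg cells, and into 82 and 1163, against 542 and 676, in the CGD sorts. The members' median for zymosan in WT cells was 0.11 with TMM and -0.14 with library size only.

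Called members of CGD against WT CD101neg cells numbered 11 with library size only, 7 with DESeq2 and 4 with only the groups compared (without Tubb5 and Mcm6). Those of CGD against WT CD101pos cells numbered 3 with DESeq2. Zymosan against naive gave 3 members in CGD cells with only the groups compared and 3 with DESeq2, and 2 in WT cells with DESeq2. Genotype by sort gave 2 members with library size only, 6 with no low-count filter, 0 with only the groups compared and 7 with DESeq2, and genotype by zymosan gave 1 with no filter and 1 with DESeq2.

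Called genes of CGD against WT CD101neg cells numbered 3985 with library size only, 2917 with DESeq2 and 1062 with only the groups compared. In CD101pos cells they numbered 572 with only the groups compared and 1402 with DESeq2, and in naive cells 9 with library size only, 6 with only the groups compared and 106 with DESeq2. The CGD sorts gave 2120 with DESeq2, and the WT sorts 140 with no filter, 0 with only the groups compared and 323 with DESeq2. Zymosan in WT cells gave 1228 with DESeq2, and in CGD cells 1996 with only the groups compared and 2794 with DESeq2. Genotype by sort gave 164 with library size only, 327 with no filter, 62 with only the groups compared and 584 with DESeq2. Genotype by zymosan gave 13 with library size only, 119 with no filter and 271 with DESeq2.

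In fits of the zymosan libraries alone with replicate numbers within genotype as a block, the CGD sorts, whose libraries share only a number (although 6 of 6 correlated best with their own number, a hint from the data), gave 17 members and 3924 genes, the WT sorts 1741 genes, and genotype by sort 12 members and 2229 genes. The same libraries without the block, chosen after seeing the data for the sorts, gave 8 members and 655 genes in the CGD sorts (without Tubb5, Stmn1 and Mcm3), 0 members and 60 genes in the WT sorts, and 0 members and 62 genes for genotype by sort. A block by number over all libraries added 1 member, Cdk1, in the CGD sorts and changed no other count of members.

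With libraries left out in turn, the members called ran from 2 to 7 in CGD against WT CD101neg cells, 0 to 2 in CD101pos cells, 3 to 11 in the CGD sorts, 1 to 2 for zymosan in CGD cells, 0 to 1 for zymosan in WT cells and 0 to 6 for genotype by sort. Genes called ran from 1164 to 1938, 320 to 1125, 2 to 64 (naive), 321 to 1185, 3 to 400 (WT sorts), 1170 to 1891, 263 to 560, 43 to 497 and, for genotype by zymosan, 5 to 54. Where this left a group with 2 libraries, the spread was that of all groups. The common variation between replicates was 33%.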
